A study of Homo sapiens with 6 samples.

Results

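D-type cyclins, the kinases CDK4 and CDK6, the INK4 inhibitors and the retinoblastoma gene RB1 were followed in bulk RNA sequencing of 1CT and 1CT-A cells. The 10 genes were chosen by name, as CCND1, CCND2, CCND3, CDK4, CDK6, CDKN2A, CDKN2B, CDKN2C, CDKN2D and RB1, out of 24462 gene symbols in the count files. Each of the 10 was listed once per file and each passed the filter on low counts. There were 3 libraries of 1CT, an immortalized human colonic epithelial progenitor line labelled WT, and 3 of 1CT-A, its APC depleted version, labelled APC KD. Neither line was treated, and both grew in the same medium. It held epidermal growth factor at 20 ng/mL, hydrocortisone at 1 μg/mL, insulin at 10 μg/mL, transferrin at 2 μg/mL, sodium selenite at 5 nM and 2% FBS. In such a mitogen supply D-type cyclins are normally made. The study received both lines from another laboratory, and whether 1CT-A is a single clone is not given in the sources used here. The 1CT line is known to carry introduced CDK4 and telomerase genes, so both groups share an added CDK4 copy. Nothing in the labels says that the 3 libraries of a line came from separate cultures, so p values measure the spread between these libraries, which may be technical.

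In the G1 phase of the cell cycle, mitogens induce D-type cyclins, which bind and activate CDK4 or CDK6. The active kinases phosphorylate the RB1 protein, which then releases E2F transcription factors and lets genes of DNA replication be transcribed. INK4 proteins bind CDK4 and CDK6 and keep them from their cyclins. In the intestinal epithelium, loss of APC stabilizes β-catenin, and CCND1, CCND2 and MYC are among the genes known to respond to this pathway.

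Reads came from 3′ end libraries (QuantSeq), in which a transcript yields reads near its poly(A) end whatever its length. Levels are therefore given as CPM, counts scaled by each library's total, and were not divided by length. Values after ± are SDs over the 3 libraries of a line (n = 3). Library totals were 7788679 to 8452258 counts in 1CT and 11158108 to 12602988 in 1CT-A. Members had between 57 and 10870 counts in a library, far above the 3 counts (0.238 to 0.385 CPM) taken as the smallest visible level. Pairs of 1CT libraries that included replicate 3 differed by a chi-square per degree of freedom of 7.54 and 9.004, against 3.80 for the other pair and 3.11 to 4.56 in 1CT-A. APC itself, the depleted gene, averaged 46.6 ± 2.75 CPM in 1CT against 31.9 ± 2.21 CPM in 1CT-A, with no overlap (log2 fold change -0.58, SE 0.09, edgeR adjusted p = 1.76e-04). Of the colon epithelium markers, EPCAM, KRT20, CDX2 and VIL1 had at most 3 counts in every library. KRT18 (11.2 to 5.06 CPM) and KRT19 (3.33 to 0 CPM) were called lower in 1CT-A, and CDH1 and KRT8 had too few counts to test. The 8 epithelial markers together reached 13.4 to 17.4 CPM in the 1CT libraries and 3.23 to 7.20 CPM in those of 1CT-A. The 8 fibroblast markers, none of which was at or under 3 counts, reached 4664 to 5656 CPM and 4301 to 4605 CPM. This sum hides opposite moves. COL3A1 (47.8 to 253 CPM) and DCN were called higher in 1CT-A, COL1A1, VIM, PDGFRB and THY1 lower, and COL1A2 and LUM were not called. Endothelial markers had at most 3 counts in every library, as did the blood cell markers other than CD14. The part of these marker levels in the results was not tested, and in bulk RNA fewer expressing cells and less RNA per cell cannot be told apart.

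The promoter of CDK4 is shown because CDK4 rose in 1CT-A and its promoter held repeated copies of the E-box CACGTG, the letters that MYC is known to bind. RefSeq promoters (GRCh38.p14, 250 bases before to 50 bases after a gene start) were found for 8 of the 10 members in 14 windows, and the entries of CCND1 and CCND2 were missing. The single RB1 window belongs to an inner start, 172706 bases into the annotated gene. CACGTG, which reads the same on both strands, was present in 4 of the 14 windows, those of CDK4, of CDK6, which fell in 1CT-A, and 2 of CDKN2C, which rose. The CDK4 window held it at 3 places, beginning 216, 196 and 101 bases before the RefSeq start. This start lies 3703 bases inside the longer GENCODE gene whose range is printed with the CDK4 levels. Of 35116 promoter windows of this length in the table, 7.26% held the motif and 0.094% held at least 3 copies. The 250 bases before the RefSeq start of CDK4, chr12:57752311-57752560 on the minus strand, read as follows from 5′ to 3′, with the E-boxes in capitals.
CDK4 promoter: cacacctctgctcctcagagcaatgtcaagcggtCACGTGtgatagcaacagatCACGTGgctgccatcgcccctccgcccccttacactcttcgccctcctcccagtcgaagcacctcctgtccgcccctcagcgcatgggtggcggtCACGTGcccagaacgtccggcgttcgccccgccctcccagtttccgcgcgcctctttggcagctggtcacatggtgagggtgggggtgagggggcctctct
The motif was chosen after these sequences had been read, and a match describes the letters and not a bound site. Any part of the motif or of MYC in the rise of CDK4 was not tested. The CDK4 counts also do not separate the chromosomal gene from the introduced copy. The E2F motifs TTTCCCGC, TTTGGCGC and TTTCGCGC, searched on both strands, were in none of the 14 windows and in 2.74% of all windows.

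D-type cyclins bind CDK4 and CDK6 and set their activity in G1. Their summed level fell in 1CT-A, and the mixture changed from mostly CCND1 to a more even one. CCND1, encoding cyclin D1 (chr11:69641156-69654474), was at 1271, 1107 and 1396 CPM in 1CT replicates 1, 2 and 3 and at 336, 347 and 315 CPM in 1CT-A. All 3 1CT-A libraries lay far below all 3 1CT libraries. The group means were 1258 ± 145 and 333 ± 16.1 CPM, a 3.78-fold lower level in 1CT-A. In edgeR's quasi-likelihood fit the log2 fold change was -1.96 (SE 0.09, 95% interval -2.15 to -1.77, adjusted p = 2.62e-09). Among the 1851 tested genes that averaged 100 CPM or more, only 14 had a lower log2 fold change than CCND1.

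CCND2, encoding cyclin D2 (chr12:4269771-4305353), moved the other way. It was at 49.2, 60.4 and 51.4 CPM in 1CT and at 216, 210.04 and 198 CPM in 1CT-A. Every 1CT-A library was above 3 times the highest 1CT library. The log2 fold change was 1.92 (SE 0.09, 95% interval 1.73 to 2.11, edgeR adjusted p = 3.24e-09), the rank 9 from the top among the same 1851 genes. CCND2 averaged 53.6 CPM in 1CT and reached the mean of 100 CPM over the 6 libraries only through 1CT-A. This rank is therefore no further support for the rise. CCND3, encoding cyclin D3 (chr6:41934934-42050357), was at 197, 183 and 209 CPM in 1CT and 167, 166 and 157 CPM in 1CT-A. Its groups were close but did not overlap, and the log2 fold change was -0.31 (SE 0.08, edgeR adjusted p = 0.00399).

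**Figure D1:**
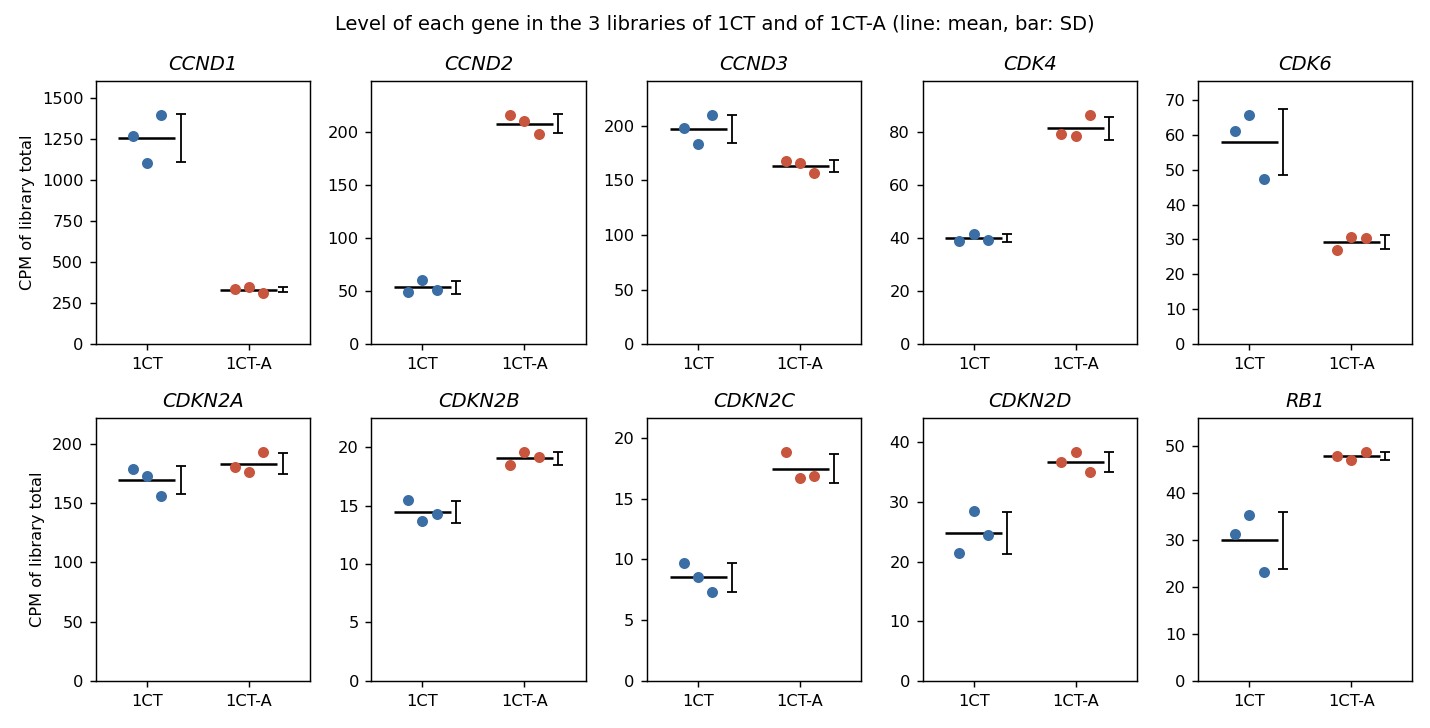
CPM of each library's total for the 10 genes in 1CT (blue) and 1CT-A (red), each on its own axis from 0. Points are the 3 libraries, lines are means and bars are SDs. The groups are apart for every gene other than CDKN2A.

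The 3 D-type cyclins together summed to 1517, 1350.4 and 1656 CPM in the 1CT libraries and 719, 723 and 670.0 CPM in the 1CT-A libraries, a 2.14-fold lower sum. The groups did not overlap (two-sided p = 0.1 by exact permutation, the lowest p reachable with 3 libraries against 3). Within this sum, CCND1 took 83.7%, 81.9% and 84.3% of the counts in the 1CT libraries and 46.7%, 48.0% and 47.1% in the 1CT-A libraries. CCND2 took 3.61% ± 0.75 in 1CT and 29.5% ± 0.47 in 1CT-A. The share of CCND3 went from 13.1% ± 0.48 to 23.2% ± 0.26, although its own level was lower, since the sum shrank more. These shares come from counts of the same library and do not depend on how libraries are scaled. The difference in the CCND1 share was -36.0 percentage points, against a spread between replicates of 0.98 points (exact permutation test, two-sided, p = 0.1).

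**Figure D2:**
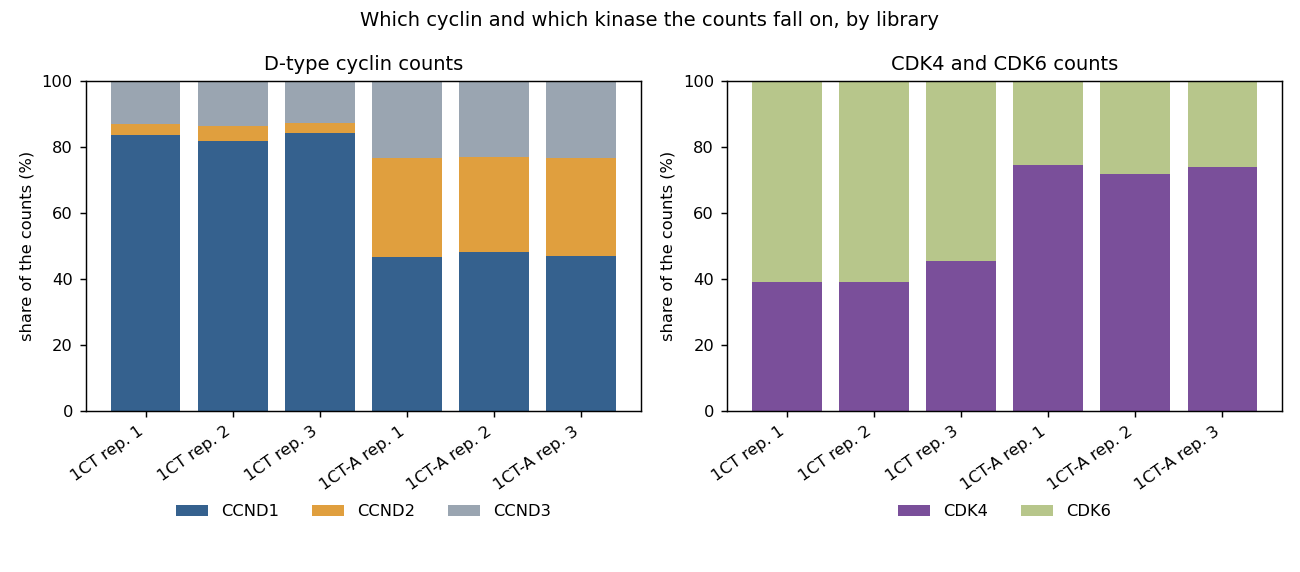
Share (%) of the summed D-type cyclin counts on each cyclin (left) and of the summed CDK4 and CDK6 counts on each kinase (right), by library. CCND1 holds 81.9% to 84.3% of cyclin counts in 1CT and 46.7% to 48.0% in 1CT-A, and CDK4 goes from 38.9% to 45.3% of kinase counts to 71.9% to 74.6%.

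CDK4 and CDK6 encode the catalytic partners of the D-type cyclins, and they moved in opposite directions by similar amounts. CDK4 (chr12:57747727-57756013) was at 39.0, 41.8 and 39.3 CPM in 1CT and 79.4, 78.7 and 86.4 CPM in 1CT-A. All 1CT-A libraries were well above the 1CT libraries, with a log2 fold change of 0.99 (SE 0.08, edgeR adjusted p = 6.69e-07). Counts per gene symbol do not separate the chromosomal CDK4 from the copy introduced to immortalize the line, and the part of that copy was not tested. CDK6 (chr7:92604921-92836573) was at 61.2, 65.6 and 47.4 CPM in 1CT and 27.1, 30.7 and 30.3 CPM in 1CT-A. The 1CT libraries were the more spread, replicate 3 being the lowest of them, yet each was above each 1CT-A library. The log2 fold change was -1.02 (SE 0.11, edgeR adjusted p = 8.66e-06).

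The kinase with more counts therefore differed between the lines. CDK4 took 41.1% ± 3.69 of the summed CDK4 and CDK6 counts in 1CT and 73.5% ± 1.397 in 1CT-A. On the log2 scale the CDK4 to CDK6 count ratio was -0.65, -0.65 and -0.27 in 1CT and 1.55, 1.36 and 1.51 in 1CT-A, a difference of 2.00 (exact permutation test, two-sided, p = 0.1). The summed level of both kinases was 98.1 ± 10.5 CPM in 1CT and 111 ± 5.27 CPM in 1CT-A. The ranges of this sum overlapped, with a log2 difference of 0.18 (exact permutation test, two-sided, p = 0.2). This difference was 0.25 without 1CT replicate 2 and 0.21 without 1CT-A replicate 1, and in both cases the groups no longer overlapped. It was 0.10 without 1CT replicate 3.

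The INK4 genes encode the inhibitors specific to CDK4 and CDK6. Of the 4, CDKN2B, CDKN2C and CDKN2D rose in 1CT-A and CDKN2A did not pass the test. CDKN2A (chr9:21967752-21995301) was at 179, 173 and 156 CPM in 1CT and 180.4, 177 and 193 CPM in 1CT-A. The groups overlapped, and the log2 fold change of 0.08 had a 95% interval of -0.08 to 0.24 (SE 0.07, edgeR adjusted p = 0.403). CDKN2A encodes p16 and, from another first exon in another reading frame, the ARF protein, and reads from the shared 3′ end cannot tell these transcripts apart. CDKN2B, which encodes p15, lies 7601 bases from CDKN2A (chr9:22002903-22009305). It was at 15.5, 13.6 and 14.3 CPM in 1CT and 18.5, 19.6 and 19.1 CPM in 1CT-A. The libraries did not overlap, and the log2 fold change was 0.36 (SE 0.12, edgeR adjusted p = 0.0197). The call was lost without 1CT replicate 2, 1CT-A replicate 2 or 1CT-A replicate 3, and in DESeq2, with adjusted p between 0.0564 and 0.0596.

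CDKN2C, which encodes p18 (chr1:50960745-50974634), was at 9.70, 8.57 and 7.32 CPM in 1CT and 18.8, 16.7 and 16.8 CPM in 1CT-A. All 1CT-A libraries were well above the 1CT libraries, with a log2 fold change of 0.99 (SE 0.14, edgeR adjusted p = 7.8e-05). CDKN2D, which encodes p19 (chr19:10566460-10569059), was at 21.4, 28.5 and 24.5 CPM in 1CT and 36.7, 38.4 and 34.99 CPM in 1CT-A. Its groups did not overlap, and the log2 fold change was 0.52 (SE 0.11, edgeR adjusted p = 0.00144). CDKN2A took 77.9% ± 1.19 of the summed INK4 counts in 1CT and 71.4% ± 1.48 in 1CT-A. The INK4 sum was at 225, 224 and 202 CPM in 1CT and 254, 251 and 264 CPM in 1CT-A, 1.18-fold higher and without overlap (exact permutation test, two-sided, p = 0.1). The ratio of summed kinase counts to summed INK4 counts differed by -0.06 on the log2 scale, with overlapping groups and a spread between replicates of 0.06 (exact permutation test, two-sided, p = 0.4). Leaving out 1CT replicate 3 gave -0.10 without overlap, and leaving out 1CT replicate 2 or 1CT-A replicate 1 gave -0.02 and -0.04.

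RB1 (chr13:48303744-48599436) encodes the pocket protein that CDK4 and CDK6 phosphorylate. It was at 31.2, 35.3 and 23.2 CPM in 1CT and 47.9, 47.0 and 48.7 CPM in 1CT-A. The 1CT libraries varied by 20.5% (coefficient of variation), against 6.38% for counting alone, and the 1CT-A libraries by 1.75%. Even the highest 1CT library was below the lowest 1CT-A library, and the log2 fold change was 0.64 (SE 0.12, edgeR adjusted p = 6.66e-04).

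In all, 9 of the 10 members passed an adjusted p under 0.05, 6 higher and 3 lower in 1CT-A. Of all 12514 genes tested, 51% passed, 25% higher and 26% lower, so that a call alone is common in these data. CPM ranges did not overlap between the lines for 9 of the 10 members and for 59.7% of all tested genes. The thresholds named in the study's methods are a 2-fold change or more with p under 0.01 before adjustment. They were met by 13.4% of all genes, 3.8% higher and 9.6% lower in 1CT-A, and by CCND1, CCND2 and CDK6 among the members. CDK4 and CDKN2C came just under the fold, with log2 fold changes of 0.99 each, and the side taken by these and by CDK6 depended on the scaling. With library size only, the log2 fold changes were 1.02 for CDK4, 1.03 for CDKN2C and -0.98 for CDK6. The median log2 fold change over the 10 members was 0.44, beside -0.01 over all tested genes.

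**Figure D3:**
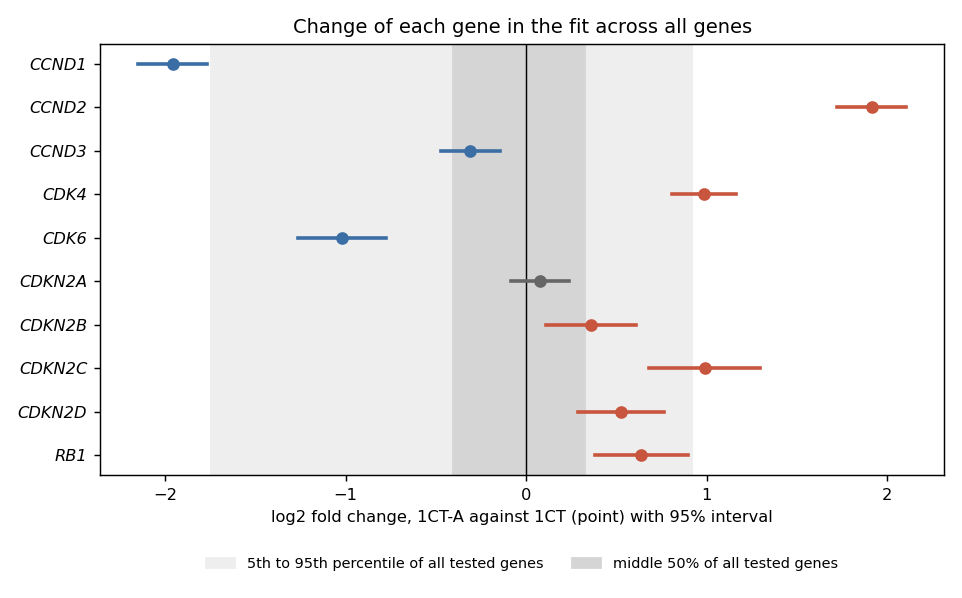
Log2 fold change, 1CT-A over 1CT (x axis), for the 10 genes (y axis), with 95% intervals from edgeR's fit. The grey bands hold the middle 50% and the range from percentile 5 to 95 of all tested genes. CCND1 lies below both bands, CCND2 far above and CDK4 and CDKN2C just above them, and the interval of CDKN2A spans 0.

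The members' changes were set beside those of genes within 5 Mb that averaged 10 CPM or more. The median log2 fold change of these neighbours was between -0.03 and 0.31 for each of the 10 members. Of 107 neighbours of CCND1, 2 had a lower value than CCND1. For CCND2 it was 1 of 49 neighbours that had a higher value, for CDK4 1 of 68, and for CDKN2C 1 of 39. All 20 neighbours of CDK6 had a higher value than CDK6. RB1 had 4 of 27 neighbours above it and CDKN2D 13 of 109. CCND3 had 6 of 49 below it. CDKN2B, with 5 of 13 above it, and CDKN2A, with 7 of 13, lay well within the range of their neighbours. Several members share sequence with genes of the opposite strand, and whether counting used the strand is not given in the sources used here. ORAOV1 (now LTO1) overlaps the 3′ end of CCND1 and had 241 to 429 counts in a library, against 3748 to 10870 for CCND1. TSPAN31 overlaps the 3′ end of CDK4 and had 110 to 160 counts, against 306 to 1089 for CDK4. MARCH9 (now MARCHF9) overlaps CDK4 over 911 bases and had 4, 8 and 2 counts in 1CT and 47, 52 and 68 in 1CT-A, higher in the same line as CDK4 and far fewer. CDKN2B-AS1, an antisense RNA across CDKN2B, had 2 to 14 counts.

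The profile over the 6 libraries that was most like that of CCND1, by root mean square difference of centred log2(CPM + 1), was searched among 3489 genes that averaged 50 CPM or more. HIST2H2AA4, a histone H2A gene with a near-identical copy, was closest with a difference of 0.07. UACA (0.09), COL8A1, a collagen gene (0.10), PPME1, a phosphatase methylesterase gene (0.11), and S100A4, a calcium-binding protein gene (0.11), followed. With only 2 groups of 3, these values describe mainly the shared size of the fall, between -1.97 and -2.08 on the log2 scale. HIST2H2AA4 and S100A4 averaged 23.8 and 27.7 CPM in 1CT-A and reached the mean of 50 CPM only through 1CT.

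Among 38 other components of the pathway, listed with earlier results of these data known, 37 had enough counts and 26 passed the test, 19 higher and 7 lower in 1CT-A. Their median log2 fold change was 0.21. Beside this, 51% of all 12514 tested genes passed, 25% higher and 26% lower in 1CT-A. The counts in the smaller groups below are to be read against these shares. Of the other CDK partners and inhibitors, CDKN1A, an inhibitor of several cyclin-CDK complexes, fell by 1.23 on the log2 scale (SE 0.08). It was at 618, 578 and 697 CPM in 1CT and 272, 281 and 278 CPM in 1CT-A. CDKN1B, an inhibitor of the same family, rose from 16.1 ± 3.29 to 26.2 ± 1.51 CPM. In all, 4 of 7 genes of this group rose and 2 fell.

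Pocket proteins and E2F or DP factors act with and after RB1. Of 9, 6 rose and none fell. E2F2 was at 2.72, 3.86 and 3.21 CPM in 1CT and 10.2, 11.2 and 10.0 CPM in 1CT-A (log2 fold change 1.64, SE 0.18). RBL1, the pocket protein p107, was at 10.2, 9.54 and 10.0 CPM in 1CT and 20.8, 20.9 and 20.5 CPM in 1CT-A (log2 fold change 1.02, SE 0.12). For RBL1 the libraries of each line lay close together and far from those of the other line. E2F2 had only 23, 32 and 25 counts in 1CT, where it varied by 17.6% (coefficient of variation), and its lines did not overlap.

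Of 7 genes that act on D-type cyclin turnover, 2 rose and 3 fell. FBXO4, an F-box protein reported to target cyclin D1 for degradation, went from 3.33 ± 0.55 to 8.72 ± 0.77 CPM, a log2 fold change of 1.34 (SE 0.19). CRYAB, a small heat shock protein known as its cofactor, was at 16.8, 16.9 and 20.3 CPM in 1CT and at 0.18, 0.70 and 0.56 CPM in 1CT-A, where it had 2, 8 and 7 counts. The F-box protein and its cofactor thus changed in opposite directions. AMBRA1, the receptor of the ubiquitin ligase that acts on all D-type cyclins, was not called (log2 fold change -0.06, 95% interval -0.29 to 0.17).

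Of 6 genes of the INK4 locus and its regulators, 3 rose and 1 fell. BMI1, a Polycomb protein known to repress the locus, was at 35.6 ± 4.23 CPM in 1CT and 52.7 ± 4.92 CPM in 1CT-A. CBX7, another Polycomb repressor of the locus, fell from 19.0 ± 1.63 to 9.40 ± 0.58 CPM, a log2 fold change of -1.05 (SE 0.13). Of 8 inputs to D-type cyclin transcription, 4 rose and 1 fell. LEF1, a DNA-binding partner of β-catenin, was at 1.06, 1.69 and 1.16 CPM in 1CT and 12.8, 14.8 and 9.20 CPM in 1CT-A, a log2 fold change of 3.18 (SE 0.27). LEF1 had only 9, 14 and 9 counts in 1CT, so the size of its change rests on a low 1CT level. MYC was at 8.28, 8.57 and 4.75 CPM in 1CT and 15.4, 21.4 and 17.6 CPM in 1CT-A, a log2 fold change of 1.29 (SE 0.19). Other than AMBRA1, each gene named from these 5 groups had an edgeR adjusted p of at most 0.00143 and ranges that did not overlap. Both follow in part from the choice, since these genes were named for a call and the largest changes. Ranges did not overlap for 59.7% of all tested genes.

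Of 20 genes known as targets of E2F factors, 18 rose, 1 fell and 1 was not called, with a median log2 fold change of 0.92. Of all tested genes, 25% were called higher and 26% lower. UHRF1, which maintains DNA methylation in S phase, rose from 30.03 ± 3.92 to 96.0 ± 4.35 CPM, and MCM2, a subunit of the replicative helicase, from 35.6 ± 2.76 to 105 ± 2.56 CPM. CCNE1, named here after its value was seen as the target that fell, had a log2 fold change of -0.48 (SE 0.13, edgeR adjusted p = 0.00891).

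**Figure D4:**
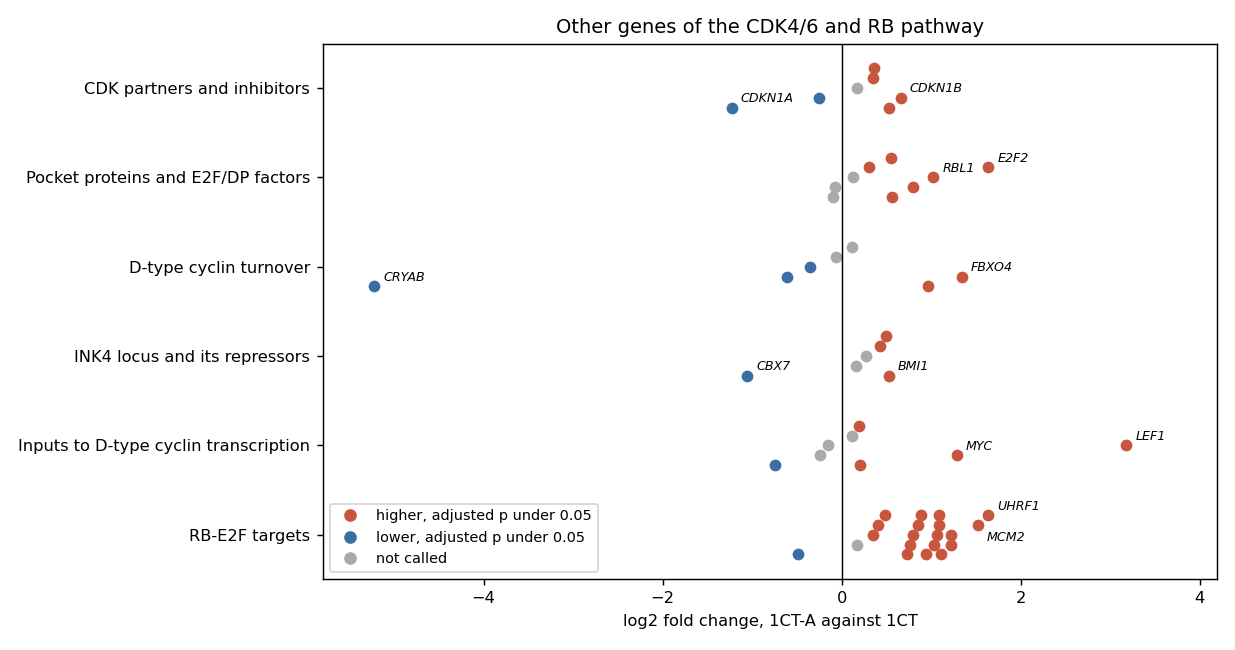
Log2 fold change, 1CT-A over 1CT (x axis), for the other genes of the pathway, by group (y axis). Red points are called higher, blue lower and grey not called at an edgeR adjusted p under 0.05. Of the E2F targets 18 of 20 lie to the right and are called, and CRYAB lies farthest left.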

How the data were processed

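Bulk RNA sequencing libraries were made by the QuantSeq method from 500 ng of total RNA, 3 of 1CT and 3 of 1CT-A. The authors deposited raw counts of reads per gene symbol, 1 file per library, without normalization. The submitters' processing notes name Bowtie2, edgeR and hg19. The annotation and the strand setting are not given in the sources used here. Repeated symbols (286, with 1.46% of counts) were summed, and CPM was computed from each file's total. edgeR 4.0.16 in R 4.3.3 was fitted to all genes (TMM, filterByExpr with a minimum count of 10, quasi-likelihood test, Benjamini-Hochberg adjustment over 12514 genes). The standard error is the absolute log2 fold change over the root of F. Single values were compared by exact permutation. The tests were checked on simulated data. Alternatives used DESeq2 1.42.0, limma 3.58.1, other scalings and filters, the study's thresholds on edgeR's p values and each library left out. Upper-quartile scaling was added after the data were seen.

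Positions and promoters are on GRCh38, from GENCODE release 44 and RefSeq, and 97.7% of tested symbols were matched. They describe the annotation and not the counting. All members were named. Of each other group, the called genes with the 2 largest changes were named, as well as APC and the 5 profiles nearest CCND1. Genes named beyond this are AMBRA1, CCNE1 and the marker, overlapping and antisense genes. The members and lists were chosen with earlier results of these data known. Limits on counts cover counting error only.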

Additional observations from a re-analysis of the deposited data

How the results depend on the processing

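Under 15 alternative settings, or 14 for CRYAB and LEF1, which the stricter filter left out, the log2 fold changes of the 10 members and 12 named genes kept their direction in 328 of 328 values, and 324 stayed on the same side of the threshold. The other 4 were those of CDKN2B. It had 0.36 in DESeq2, and 0.32, 0.35 and 0.36 without 1CT replicate 2, 1CT-A replicate 2 and 1CT-A replicate 3. The cause was not tested. With each library left out, 8 to 9 members, 21 to 26 of the other pathway components and 18 to 20 E2F targets were called. With the study's cutoffs applied to edgeR's unadjusted p values, which also require a fold of at least 2, the numbers were 3, 8 and 9. Of all tested genes, 13.4% met these cutoffs.

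Both lines carry replicate numbers 1 to 3 in their labels, but same-numbered libraries did not deviate together (correlations from -0.16 to 0.22 across 8224 genes). With the replicate number as a block, 9 members, 25 pathway components and 19 targets were called, CCND1 had -1.95 and CCND2 1.92, and no member's call changed. Leaving out 1 library kept the summed D-type cyclin level between -1.17 and -1.03 on the log2 scale. It kept the INK4 sum between 0.19 and 0.27, the CCND1 share difference between -36.7 and -35.6 percentage points, and the CDK4 to CDK6 difference between 1.93 and 2.12. The kinase to INK4 difference ranged from -0.10 to -0.02 when 1 library was left out, around a value of -0.06.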
